A study of Ictalurus furcatus with 6 samples.

Results

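Germline piRNA pathway genes were examined in sperm of the blue catfish (*Ictalurus furcatus*, strain D&B) after cryopreservation. The members were chosen by gene name, as the features of the deposited expression table whose name equals *piwil1*, *piwil2*, *ddx4*, *tdrd1*, *tdrd5*, *tdrd6*, *tdrd7*, *tdrd9*, *mael* or *dnd1*. Of these 10 genes, 8 were found, each as 1 feature, among 27416 features in all. *piwil1* and *mael* matched no feature name and were not analysed here.

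Piwi-interacting RNAs (piRNAs) are small RNAs of the animal germline. They guide Piwi proteins, a branch of the Argonaute family, to the transcripts of transposable elements, which are cleaved or silenced. The pathway is housed in germ granules, RNA and protein bodies near the nucleus, where the RNA helicase Vasa (*ddx4*) and scaffold proteins with Tudor domains hold the Piwi proteins. Tudor domains bind methylated arginines in the tails of Piwi proteins. In zebrafish and mouse, loss of pathway components leads to loss of germ cells or to arrest of spermatogenesis. Dead end (*dnd1*) is not a piRNA factor in the narrow sense. It is an RNA-binding protein of germ granules that is needed for germ cell survival in zebrafish.

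Sperm was taken from the dissected testes of mature males. By the paper's account, some sperm was collected and flash-frozen, and sperm for cryopreservation was extracted from the tissue that remained. The groups may therefore differ in preparation too, which cannot be told apart from cryopreservation here. The cryopreserved group (C2, C3 and C5) was diluted in a balanced salt solution, mixed with methanol and cooled in straws at a controlled rate, and the fresh-frozen group (F2 and F3) was flash-frozen in liquid nitrogen without methanol. Both kinds of sample were thawed in the same way before RNA extraction, and samples are numbered by male, so males 2 and 3 gave a sample to each group. F5 was not analysed here, and the technical replicates of C2 were averaged into 1 sample. Messenger RNA was selected by its poly(A) tail.

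Values were taken as CPM, reads of a feature scaled to a common library total and not divided by gene length. Levels were therefore compared between samples and not between genes. Fold changes are log2 fold changes on the log2(CPM + 1) scale from limma. Each is given with its limma standard error (SE) and its FDR, adjusted by Benjamini-Hochberg over the 27255 features tested, all 8 members among them. DEGs were features past 2 in absolute log2 fold change with an FDR under 0.05. The median log2 fold change of all features tested was -1.02, and by sample, relative to the fresh-frozen mean, -0.74 for C2, -0.21 for C3 and -1.93 for C5. C5 stood apart from the rest, with a median value of 2.03 CPM and 2664 features at 0 or under 1e-06 CPM. In the other samples the median value lay between 9.55 and 15.7 CPM. After rescaling by TMM, a trimmed mean of ratios between libraries, the median log2 fold change of all features was -0.16. The direction of each member below is therefore given with its outcome under other scalings.

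In the limma fit, 0 of 8 members were upregulated DEGs and 0 downregulated DEGs, where 1.54% and 0% of all features tested were. At an unadjusted *p*-value below 0.05 there were 3 members, against 18.2% of all features. These were *tdrd9* with higher values after cryopreservation (6.89% of all features in that direction), and *tdrd1* and *tdrd5* with lower values (11.3% in that direction). All cryopreserved samples exceeded both fresh-frozen ones in 1 member, *tdrd9*, and in 13.6% of all features. They all lay under both in 3 members, *tdrd1*, *tdrd5* and *piwil2*, and in 41.7% of all features. Both shares of non-overlapping members, 12.5% and 37.5%, are near those of all features. The median log2 fold change of the members was -0.47, with 2 positive and 6 negative values, and became 0.72 after TMM rescaling and 0.58 after median centring. Summed over the 8 members, the level was 571, 835 and 500.1 CPM across C2, C3 and C5, against 921 and 885 CPM in F2 and F3.

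**Figure D1:**
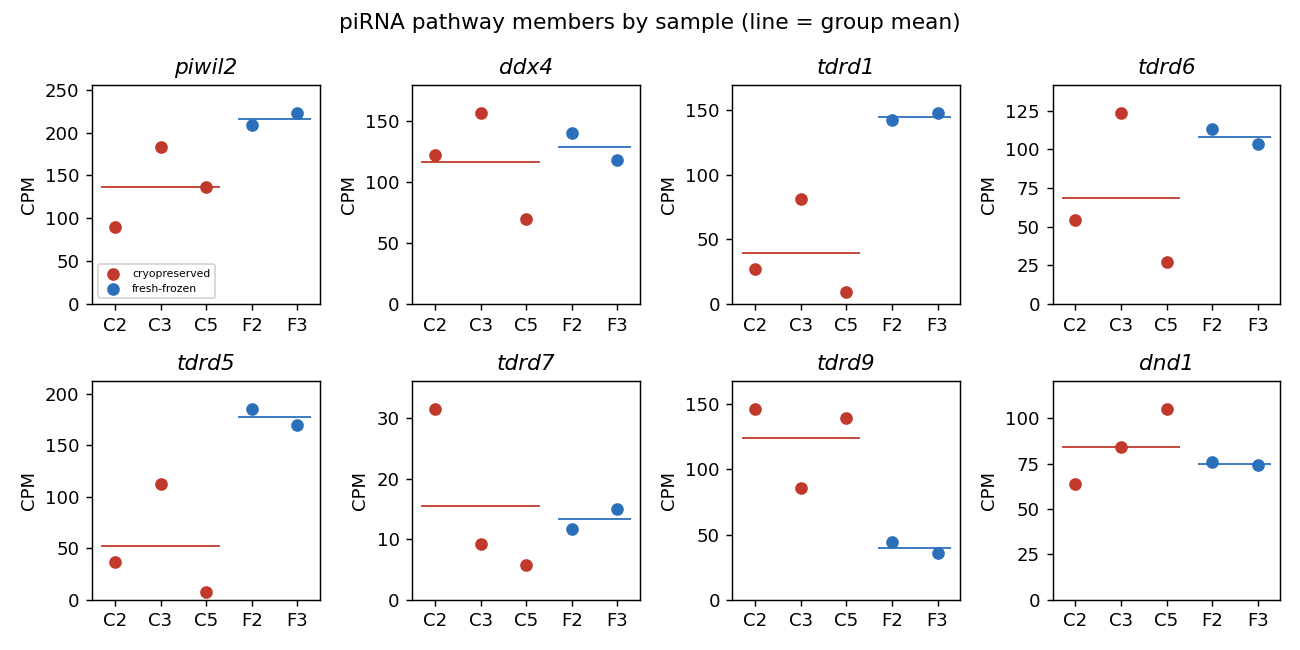
Level of each of the 8 members in CPM (vertical axis, from 0) in the cryopreserved samples C2, C3 and C5 (red) and the fresh-frozen samples F2 and F3 (blue), with lines at the group means. The groups do not overlap in *piwil2*, *tdrd1* and *tdrd5*, which lie lower in cryopreserved sperm, and in *tdrd9*, which lies higher, while the other 4 members overlap. *piwil2* turns to a higher mean after TMM rescaling or median centring.

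*piwil2* (AUIFUG00000018436) encodes a Piwi protein that loads piRNAs and cleaves target RNAs, and is the only Piwi gene among the members found. It had 89.8, 183 and 136 CPM across C2, C3 and C5, against 209 and 222 CPM in F2 and F3. All 3 cryopreserved samples lay below both fresh-frozen samples, with C3 the nearest to them. The mean was 137 ± 46.7 CPM (SD, n = 3) in cryopreserved sperm and 216 ± 9.56 CPM (SD, n = 2) in fresh-frozen sperm. The log2 fold change was -0.71 (SE 0.54, limma FDR = 0.375), and turned to 0.48 after TMM rescaling and 0.34 after median centring. Relative to the median feature *piwil2* was higher by 0.31 on the log2 scale, and it did not pass the test. Relative to the median of all features in the same sample, it was at -0.52 for C2, -0.026 for C3 and 1.27 for C5. It was therefore higher than the median feature in C5 only. Without C5 its log2 fold change was -0.74, against a median of -0.53 over all features.

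*ddx4* (AUIFUG00000001845), the Vasa helicase that remodels RNA in germ granules, had 122, 156 and 69.9 CPM across C2, C3 and C5, against 140 and 118 CPM in F2 and F3. The groups overlapped, since C2 lay between the fresh-frozen samples and C3 above them, and only C5 was below both. The log2 fold change was -0.22 (SE 0.60, limma FDR = 0.807), with 0.97 under TMM, 0.83 under median centring and 0.10 without C5. No direction can therefore be given for *ddx4*.

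The Tudor genes split, with *tdrd1* and *tdrd5* at the low end of the members and *tdrd9* at the high end under each of the 4 scalings. *tdrd5* (AUIFUG00000025087) encodes a protein with LOTUS and Tudor domains, which in mouse is part of the germ granules of spermatocytes and spermatids. It had 36.2, 112 and 7.02 CPM across C2, C3 and C5, against 185 and 170 CPM in F2 and F3. The cryopreserved samples differed widely among themselves, with C5 at 0.0396 of the fresh-frozen mean, C2 at 0.204 and C3 at 0.630. At -2.46 (SE 0.99, limma FDR = 0.265) its log2 fold change did not pass, and 7.64% of all features tested had a value as low or lower.

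*tdrd1* (AUIFUG00000017232) encodes a scaffold with several Tudor domains that binds Piwi proteins, which in zebrafish is needed for normal piRNA levels. It had 26.9, 81.4 and 9.53 CPM across C2, C3 and C5, against 142 and 147 CPM in F2 and F3. The samples stood in the same order as for *tdrd5*, with both fresh-frozen samples highest, then C3, C2 and C5. This order was seen in 2 of the 8 members and in 32.8% of all features tested. The log2 fold change of *tdrd1* was -2.33 (SE 0.89, limma FDR = 0.265). It stayed negative in all 17 alternative fits, between -3.09 and -1.17, as did *tdrd5*, between -3.37 and -1.31. These fits are not all separate checks. With all cryopreserved samples under both fresh-frozen ones, only another scaling or a single technical replicate of C2 could have reversed the sign.

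The calls for these genes depended on C3, the cryopreserved sample nearest to fresh-frozen sperm. Without C3, *tdrd5* (log2 fold change -3.37, limma FDR = 0.00377) and *tdrd1* (-3.09, limma FDR = 0.00444) were downregulated DEGs, but so were 25.6% of all features tested in that fit. Over the other alternatives the FDR from limma lay between 0.0656 and 0.718 for *tdrd1* and between 0.0709 and 0.718 for *tdrd5*. Relative to the median of all features in the same sample, *tdrd5* was at -1.53, -0.45 and -2.55 and *tdrd1* at -1.65, -0.62 and -1.87 on the log2 scale, for C2, C3 and C5 in turn.

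*tdrd9* (AUIFUG00000002814) encodes an RNA helicase with a Tudor domain, which in mouse acts in the silencing of retrotransposons in the male germline. It had 146, 85.8 and 139 CPM across C2, C3 and C5, against 44.5 and 35.5 CPM in F2 and F3. Every cryopreserved sample lay above both fresh-frozen samples, and C3 was again the nearest to them. The mean was 124 ± 33.1 CPM (SD, n = 3) in cryopreserved sperm and 40.0 ± 6.33 CPM (SD, n = 2) in fresh-frozen sperm, a ratio of 3.10. The log2 fold change was 1.58 (SE 0.65, limma FDR = 0.265), which did not pass, and it exceeded that of 91.5% of all features tested. It was positive in all 17 alternative fits, which are not all separate checks, between 1.42 and 2.75. As for *tdrd1* and *tdrd5*, most of these fits could not have reversed the sign, since the groups do not overlap. After quantile normalization it was an upregulated DEG (log2 fold change 2.04, limma FDR = 0.0412), as were 5.21% of all features. Without C3 its FDR was 0.0207 from limma, at a log2 fold change of 1.82 that is below the threshold of 2, and over the remaining alternatives the limma FDR lay between 0.126 and 0.718.

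*tdrd6* (AUIFUG00000023805) encodes a large protein with many Tudor domains, which in zebrafish is part of the germ plasm. It had 54.3, 123 and 27.2 CPM across C2, C3 and C5, against 113 and 103 CPM in F2 and F3. C2 and C5 lay below both fresh-frozen samples and C3 above both, so the groups overlapped. The log2 fold change was -0.91 (SE 0.76, limma FDR = 0.411), and turned to 0.27 after TMM rescaling and 0.14 after median centring.

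The feature named *tdrd7* (AUIFUG00000002424) may be either of the genes that RefSeq calls *tdrd7a* and *tdrd7b* in blue catfish, which was not settled. *tdrd7* encodes a protein with LOTUS and Tudor domains that in mouse acts in the remodelling of germ granules. It had 31.5, 9.26 and 5.70 CPM across C2, C3 and C5, against 11.7 and 14.96 CPM in F2 and F3. C2 was above both fresh-frozen samples while C3 and C5 were below both, and its log2 fold change, -0.12 (SE 1.01, limma FDR = 0.937), changed sign in 7 of 17 alternative fits. The technical replicates of C2 had 31.9 and 31.1 CPM, so the high value of C2 was not confined to 1 of them. Another feature of the table, *tdrd7a* (AUIFUG00000022302), was looked at after its values were seen, because reads of similar genes may be split between features. How alike these features are in sequence was not examined. It had 36.7, 21.3 and 25.1 CPM across C2, C3 and C5, against 5.09 and 12.4 CPM in F2 and F3 (log2 fold change 1.63, SE 0.91, limma FDR = 0.278). Whether reads of this pair of genes were assigned correctly was not tested.

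*dnd1* (AUIFUG00000010743) had 63.9, 84.2 and 105 CPM across C2, C3 and C5, against 76.2 and 74.1 CPM in F2 and F3. C2 was below both fresh-frozen samples and C3 and C5 were above both, and the log2 fold change was 0.14 (SE 0.64, limma FDR = 0.888). In C5, where the median feature was at -1.93, *dnd1* was higher than the fresh-frozen mean by 0.48 on the log2 scale. Under TMM its log2 fold change was 1.32, under median centring 1.19 and without C5 -0.03.

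**Figure D2:**
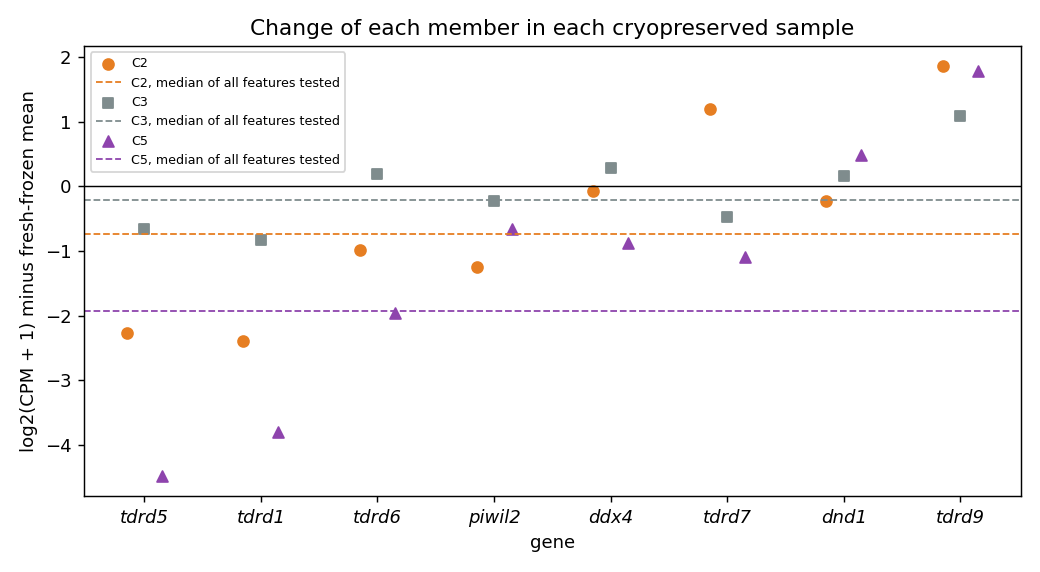
Change of each member in C2 (circles), C3 (squares) and C5 (triangles), as log2(CPM + 1) minus the fresh-frozen mean (vertical axis), with dashed lines at the median of all features tested in the same sample (-0.74, -0.21 and -1.93). *tdrd5* and *tdrd1* lie below these lines in each sample and *tdrd9* above them, and C3 lies nearest to 0 for these 3 genes.

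The male is shared by 2 pairs of samples, so the differences within males 2 and 3 are given too. In male 2, cryopreserved minus fresh-frozen was -2.36 for *tdrd1*, -2.32 for *tdrd5* and 1.70 for *tdrd9* on the log2(CPM + 1) scale. In male 3 the values were -0.85 for *tdrd1*, -0.60 for *tdrd5* and 1.25 for *tdrd9*. The signs were the same in both males, which was fixed in advance, since the groups do not overlap in these 3 genes. The size was larger in male 2 for each of them, which restates that C3 lay nearer to fresh-frozen sperm than C2. For *piwil2*, which does not overlap either, the shared sign was fixed as well. Shares of all features were not computed for these differences. For *piwil2* the differences were -1.21 in male 2 and -0.28 in male 3. The other 4 members had opposite signs in the 2 males. *tdrd7* was at 1.36 in male 2 and -0.64 in male 3, and *tdrd6* was at -1.04 in male 2 and 0.25 in male 3.

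Ratios of CPM between members of 1 library do not change when the whole library is multiplied by a single factor, as in TMM rescaling, but quantile normalization alters them. They are given from the values as deposited. The ratio of *tdrd9* to *tdrd5*, the pair at the ends of the fold change order and chosen for that after the values were seen, was 4.04, 0.768 and 19.8 across C2, C3 and C5, against 0.241 in F2 and 0.209 in F3. It was higher in all 3 cryopreserved samples than in fresh-frozen sperm, in C3 by the least and in C5 by the most. The ratio of *tdrd9* to *tdrd1* was 5.44, 1.05 and 14.6 in C2, C3 and C5, against 0.312 and 0.241 in F2 and F3. The ratio of *tdrd1* to *tdrd5* stayed within a narrow range, at 0.744, 0.729 and 1.36 in C2, C3 and C5, against 0.771 and 0.867 in F2 and F3, and overlapped between the groups. Over all 28 pairs of members, the ratio separated the groups in 18 and overlapped in 10, and all 7 pairs with *tdrd9* separated with a higher share of *tdrd9* in cryopreserved sperm. Part of this was fixed in advance. *tdrd9* lay higher and *tdrd1*, *tdrd5* and *piwil2* lower in every cryopreserved sample, so the ratios of *tdrd9* to these genes must separate. The share of separating ratios among pairs of all features was not computed, so these counts have no background. The pairs of members share genes and are no independent observations, and no test was run on them.

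**Figure D3:**
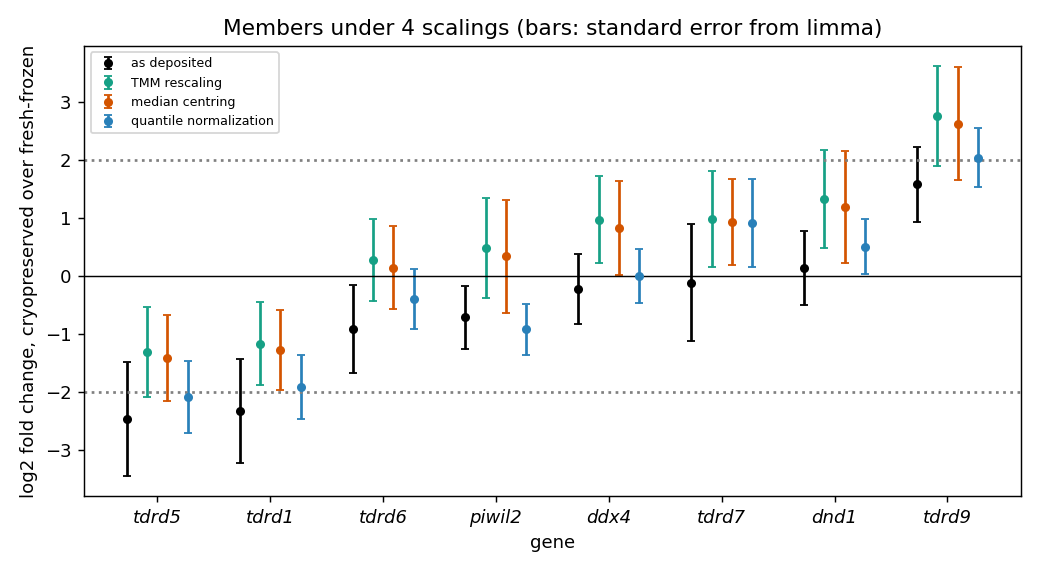
Log2 fold change of each member (vertical axis, cryopreserved over fresh-frozen; bars, standard error from limma) under 4 scalings (as deposited, TMM, median centring, quantile normalization), and dotted lines at 2 and -2. *tdrd5* and *tdrd1* are negative and *tdrd9* and *dnd1* positive under all 4 scalings, while *tdrd6*, *piwil2*, *ddx4* and *tdrd7* lie on both sides of 0.

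Other genes of the pathway were taken from a list of 30 genes, of which 22 were found, each as 1 feature. The limma fit called 0 of them upregulated and 0 downregulated, and 7 had an unadjusted *p*-value below 0.05 (18.2% of all features), with 2 higher (6.89%) and 5 lower (11.3%). The median log2 fold change was -1.49 (-0.32 after TMM rescaling), against -1.02 over all features tested. The cryopreserved samples all exceeded both fresh-frozen ones in 8 features (36.4%, against 13.6% of all features) and all lay under them in 11 (50%, against 41.7%), while 3 overlapped. After TMM rescaling 9 lay above (24% of all features) and 2 under (17.7%). Median centring and quantile normalization each left 8 above and 6 under. With median centring 24.4% of all features lay under, and the other shares of these fits are not given. The features above, with and without TMM rescaling, include *wdr77*, *tdrd3* and *KAT8*, which are not specific to the germline. Their share is therefore not one of germline genes alone. The order with both fresh-frozen samples highest, then C3, C2 and C5, which *tdrd1* and *tdrd5* had, was seen in 10 of the 22, and in 32.8% of all features. Without C3 the list had 2 upregulated and 8 downregulated DEGs, where 6.77% and 25.6% of all features were called.

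The lowest values of this list were those of *stk31*, *mybl1* and *tdrkh*. *stk31* (AUIFUG00000011257), which encodes a Tudor protein with a kinase-like domain, had 48.3, 172 and 5.53 CPM across C2, C3 and C5, against 334 and 321 CPM in F2 and F3 (log2 fold change -3.11, SE 1.09, limma FDR = 0.265). *mybl1* (AUIFUG00000014428), the transcription factor that in mouse drives piRNA precursors and pathway genes in pachytene spermatocytes, had 19.6, 84.3 and 2.86 CPM across C2, C3 and C5, against 115 and 112 CPM in F2 and F3 (log2 fold change -2.60, SE 1.13, limma FDR = 0.265). *tdrkh* (AUIFUG00000009673), a Tudor protein of the mitochondrial surface that takes part in piRNA trimming, had 24.7, 110 and 6.19 CPM across C2, C3 and C5, against 150.1 and 138 CPM in F2 and F3, with a log2 fold change of -2.41. As deposited, the groups did not overlap in any of the 3 genes and C3 was the nearest to fresh-frozen sperm, but no gene passed the test. With quantile normalization *stk31* was a downregulated DEG, as were 100 of all 27255 features tested. Without C3 all 3 genes were, as were 25.6% of all features. After TMM rescaling *mybl1* and *tdrkh* overlapped between the groups, and *stk31* still lay lower in every cryopreserved sample. The sign of all 3 genes, and that of the highest genes of the list given next, was the same under all 4 scalings.

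The highest values were those of *wdr77*, *tdrd3* and *KAT8*. None of these 3 genes is specific to the germline. *wdr77* (AUIFUG00000017106), partner of the arginine methyltransferase PRMT5 that methylates Piwi proteins, had 22.4, 8.52 and 27.9 CPM across C2, C3 and C5, against 1.81 and 4.72 CPM in F2 and F3 (log2 fold change 2.21, SE 0.996, limma FDR = 0.265). *tdrd3* (AUIFUG00000012320), a Tudor protein that reads methylated arginine on histones, had 123, 47.2 and 188 CPM across C2, C3 and C5, against 28.4 and 31.8 CPM in F2 and F3. Its log2 fold change was 1.74. *KAT8* (AUIFUG00000007291), a histone acetyltransferase, had 103, 51.0 and 120 CPM across C2, C3 and C5, against 33.2 and 29.0 CPM in F2 and F3, with a log2 fold change of 1.44. In all 3 genes, as in *tdrd9*, the cryopreserved samples lay above both fresh-frozen samples with C3 the lowest of them. This pattern was seen in 6 of the 22 features and in 10.8% of all features tested. Without C3, *wdr77* and *tdrd3* were upregulated DEGs, as were 6.77% of all features.

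Genes of germ plasm and germ cell RNA regulation were taken from a list of 23 genes, of which 18 were found as 20 features. The limma fit called 0 of them upregulated and 0 downregulated, 4 had an unadjusted *p*-value below 0.05 (18.2% of all features), and the median log2 fold change was -0.93, which turned to 0.15 with TMM rescaling and 0.12 with median centring. Without C3 there were 2 upregulated and 5 downregulated DEGs, where 6.77% and 25.6% of all features were called. Quantile normalization gave 2 upregulated DEGs (5.21% of all features), *CARHSP1* and *rbm46*, and the fit with a replicate block for the male gave 1 (4.17%), *rbm46*. *igf2bp3*, *rgs14a* and *buc* had the lowest log2 fold changes, at -2.93, -2.37 and -2.05, and *buc*, which organizes germ plasm in zebrafish, had 3.58, 13.9 and 0.208 CPM across C2, C3 and C5, against 13.8 and 20.8 CPM in F2 and F3. The highest were those of *rbm46*, *CARHSP1* and *zar1*. *rbm46* (AUIFUG00000024038), an RNA-binding protein needed for entry into meiosis in mouse, had 72.1, 26.7 and 40.1 CPM across C2, C3 and C5, against 9.11 and 5.80 CPM in F2 and F3 (log2 fold change 2.40, SE 0.89, limma FDR = 0.265). *CARHSP1* was at 1.84 and *zar1* at 0.46 on the log2 scale. *dazl*, a germ cell translation regulator, had 19.4, 18.9 and 5.04 CPM across C2, C3 and C5, against 31.3 and 33.2 CPM in F2 and F3. It lay lower in every cryopreserved sample as deposited, but not with TMM rescaling, median centring or quantile normalization. Under all 4 scalings *igf2bp3* and *rgs14a* lay lower, and *rbm46* and *CARHSP1* higher, in every cryopreserved sample, while *buc* and *zar1* overlapped.

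Markers of the germ cell stages and of other testis cells were looked at in the same samples, and the lists differed in direction. Of 10 spermatogonial features, 8 lay lower in every cryopreserved sample, against 41.7% of all features. The count was 5 after TMM rescaling (17.7%) and 6 after median centring (24.4%). Their summed level was 106, 278 and 22.4 CPM across C2, C3 and C5, against 400.0 and 401 CPM in F2 and F3. Their median log2 fold change was -2.10, between -2.65 for *sall4* and -1.55 for *gfra1*, with 0 DEGs and 3 features at an unadjusted *p*-value below 0.05 (18.2% of all features). Without C3, 7 of the 10 were downregulated DEGs (25.6% of all features). Of 15 spermatid and sperm features, 13 lay higher in every cryopreserved sample (13.6% of all features) and 7 were upregulated DEGs (1.54%), with a median log2 fold change of 3.30. The count of DEGs was 11 with quantile normalization, and 0 without C2, with median centring or with a constant prior, where 0 of all features were called. The summed level of these features was 8436, 4418 and 15799 CPM across C2, C3 and C5, against 962 and 862 CPM in F2 and F3. *SPAG6* was at 5.13 and *cfap53* at 4.85 on the log2 scale, while *Tekt2* (-0.54) and *spata6* (-0.53) were negative. This list was chosen with earlier results of these data known and holds *saxo2*, which the paper reported as upregulated. Its counts are therefore not independent of those results. By summed level, C3 was the cryopreserved sample nearest to fresh-frozen sperm and C5 the farthest in the spermatogonial list and in the sperm list. *tdrd1* and *tdrd5* had this order too, but so had the median of all features tested (-0.21 for C3, -0.74 for C2 and -1.93 for C5). Both fresh-frozen samples highest, then C3, C2 and C5, was seen in 32.8% of all features. The shared order is therefore not particular to these genes. In bulk samples, fewer cells of a type and less RNA per cell cannot be told apart, and the part of cell composition in the values of the members was not tested.

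The 15 spermatocyte features had a median log2 fold change of -0.40 (0.75, 0.65 and 0.37 with TMM, median centring and quantile normalization, and 0.14 without C5), with 0 DEGs (3 downregulated without C3), between -2.12 for *spo11* and 1.42 for *SYCE3*, and summed to 514, 779 and 196 CPM across C2, C3 and C5, against 784 and 731 CPM in F2 and F3. The 8 Sertoli cell features had a median of -1.16 (-0.10, -0.11 and -0.11 under these scalings, and -0.30 without C5), with 0 DEGs (1 downregulated without C3, *sox9*), and summed to 114, 221 and 15.1 CPM across C2, C3 and C5, against 232 and 267 CPM in F2 and F3. *sox9* was the lowest of them at -2.92, and *inha* was listed at 0 in C5. Without C3, 25.6% of all features were downregulated DEGs, so the downregulated spermatocyte and Sertoli cell features of that fit are not particular to these lists. The 4 Leydig cell features had a median of -0.78 (0.25, 0.28 and 0.25 under the same scalings), with 0 DEGs, and summed to 41.4, 39.1 and 10.8 CPM across C2, C3 and C5, against 56.1 and 42.0 CPM in F2 and F3. The 6 blood features had a median of 0.54 (1.66, 1.59 and 1.11 under these scalings, and -0.27 without C2) and 1 upregulated DEG, *HBB* (log2 fold change 5.204, limma FDR = 0.0389). The call of *HBB* was lost with a pseudocount of 0.1 or 0.5, the filter at 5 CPM, median centring, the constant prior and without C2, and *epb41b* was a further upregulated DEG with TMM, quantile normalization, the replicate block, without C3 and without C5. Without C3, *PTPRC* was a downregulated DEG, as were 25.6% of all features. These features summed to 3452, 762 and 211 CPM across C2, C3 and C5, against 310 and 271 CPM in F2 and F3. In C2, *HBB*, *alas2*, *epb41b* and *slc4a1* lay above both fresh-frozen samples, but the other features of the list did not. *hbaa1* had 8.56 CPM in C2, against 19.0 and 8.58 CPM in F2 and F3, and *PTPRC* had 36.8 CPM, against 122 and 117 CPM. The high sum of C2 falls in the same sample as the high value of *tdrd7*, and their relation was not tested.

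**Figure D4:**
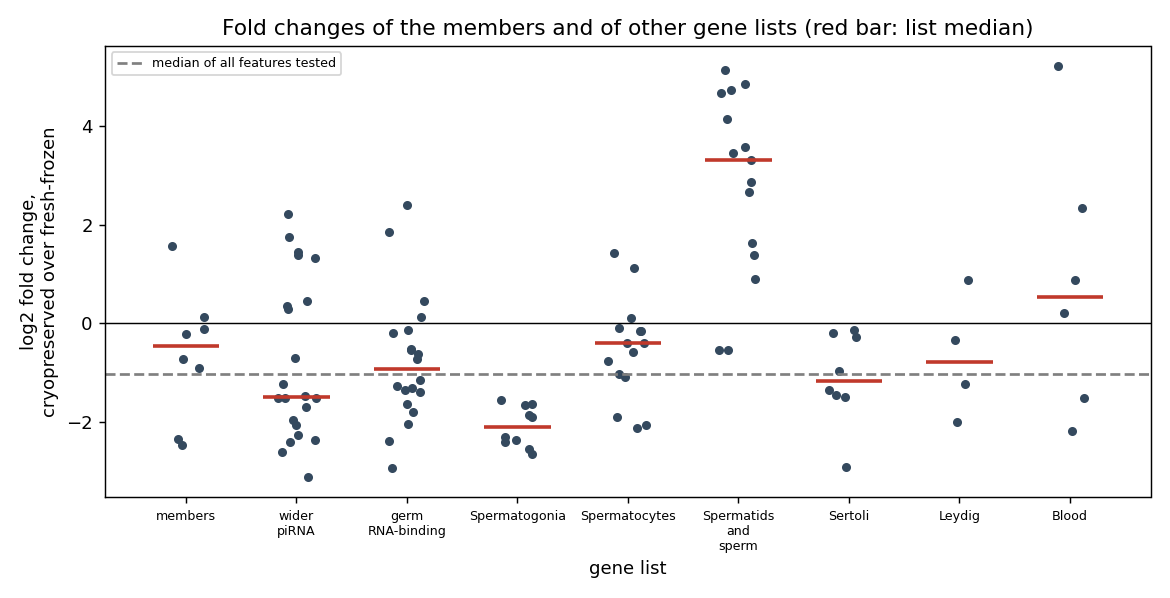
Log2 fold change (vertical axis, cryopreserved over fresh-frozen, values as deposited) of the features of 9 gene lists, with a red bar at each list's median and a dashed line at -1.02, the median of all features tested. The 8 members spread from -2.46 to 1.58 around a median of -0.47. The spermatogonial list has the lowest median (-2.10) and the list of spermatids and sperm the highest (3.30). The medians of all other lists, the members among them, lie between these. With TMM rescaling or median centring the medians of the members, the germ cell RNA list, the spermatocytes and the Leydig cells turn positive.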

How the data were processed

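Reads were trimmed (Trimmomatic 0.39), mapped to a blue catfish assembly (TopHat2 2.1.1), assigned to genes (HTSeq 1.0) and compared in edgeR by the authors. The deposited sample values carry the name RPKM. Column sums of 992942 to 997458 go against this, and the values were taken as CPM. An average log2 CPM that the authors deposited beside them served only to check this unit. Whole reads were not recovered, so the read count behind a value is unknown, and no counting intervals and no test on counts are given. The paper lists more filtered reads for each of F2 and F3 than for any of C2, C3 and C5.

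Features whose mean exceeded 1 CPM in either group were compared on log2(CPM + 1). The fit used limma 3.58.1 in R 4.3.3, with the prior allowed to follow the mean and Benjamini-Hochberg adjustment. The standard error, *p*-value and FDR of each fit come from limma. The script was tested on simulated data. Summaries and plots used Python 3.11.15 with pandas 2.3.3 and matplotlib 3.10.9. C2 is the mean of its 2 technical replicates, and F5 was not analysed here. A name was taken from the second name column where the first held no symbol.

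Members and lists were chosen with earlier results of these data known. Every member is named with its values. Of the other lists, DEGs or at most 3 features from each end of the fold change order are named, and *dazl* and *tdrd7a* are named outside this rule. Alternatives covered the pseudocount, the filter, the scaling, the prior of limma, each technical replicate of C2 and each sample left out. The male was added as a replicate block, since same-numbered samples come from 1 male. The difference between males 2 and 3 in cryopreserved sperm and that in fresh-frozen sperm had a correlation of -0.0181 across 27255 features. Coordinates and sequences are not used here.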

Additional observations from a re-analysis of the deposited data

How the results depend on the processing

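The counts of upregulated and downregulated members were 0 in the main comparison and in most alternatives. With quantile normalization 1 member was upregulated (*tdrd9*, log2 fold change 2.04), as were 5.21% of all features. In that fit 1 feature of the wider pathway list, *stk31*, was downregulated, as were 100 of all 27255 features tested. Leaving out each cryopreserved sample in turn gave 0 to 2 downregulated members, and 0 to 2 upregulated and 0 to 8 downregulated features of the wider list. Every nonzero count came from the fit without C3, which called 6.77% of all features upregulated and 25.6% downregulated. The number of members higher in every cryopreserved sample was 3 with TMM rescaling (24% of all features) or median centring. It was 2 with quantile normalization, and 1 to 2 with a sample left out. The number of members lower in every one was 2 with TMM rescaling (17.7% of all features) or median centring (24.4%), and 3 to 4 with a sample left out. For the other fits named here the shares of all features that do not overlap are not given. The median of the members was reversed to 0.72 with TMM rescaling and 0.58 with median centring. The direction was also reversed with TMM rescaling for *tdrd6* (0.27), *piwil2* (0.48), *ddx4* (0.97) and *tdrd7* (0.98), with median centring for *tdrd6* (0.14), *piwil2* (0.34), *ddx4* (0.83) and *tdrd7* (0.93), and with quantile normalization for *tdrd7* (0.92). TMM rescaling and median centring raise the cryopreserved samples relative to the fresh-frozen ones, C5 by the most and C3 by the least. As deposited, their median feature is lower. TMM rescaling divides each sample by a factor, which was 0.886, 1.269 and 0.328 for C2, C3 and C5. For F2 and F3 it was 1.604 and 1.692. C3 itself is therefore lowered by it, but less than F2 and F3. With a sample left out, log2 fold changes lay between -0.47 and 0.10 for *ddx4*, -0.78 and 0.36 for *tdrd7*, and -0.034 and 0.32 for *dnd1*.

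With the male as a replicate block, *ddx4* was at 0.10, *tdrd7* at 0.36 and *dnd1* at -0.034, and no call of a member changed. C5 has no fresh-frozen partner, so this fit rests on males 2 and 3, and with 1 residual degree of freedom its variances rest on the prior of limma. The alternatives for the wider pathway list were chosen after seeing the data. When a fresh-frozen sample is left out, the lone sample is assumed to vary like the cryopreserved ones.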
